A study of Malus domestica with 6 samples.

Results

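Apple chromosome 8 carries, right after the gene of the light-signalling factor HY5, a run of 178 gene IDs from MD08G1147200 to MD08G1165000 among the 52311 IDs measured. Its members are every ID in this range, and HY5 itself (MD08G1147100) stands outside it. Gene IDs follow the order of the GDDH13 v1.1 apple annotation along the chromosome. The question was which of these genes had different transcript levels in red flesh (RF) and white flesh (WF) of the same apples.

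RNA came from fruit mesocarp of the red-flesh cultivar 'R201', untreated, at 84 days after full bloom. Each flesh type had 3 libraries, lettered A to C, from fruits of different trees, and the labels call these replicates semi-biological. RF was the outer and WF the inner part of the cortex of the same fruits, so colour and position in the fruit cannot be told apart. All 6 libraries share 1 genotype. In fits paired by letter, the p-values weigh the difference between RF and WF against its variation over the 3 letters. In fits without the pairing, they weigh it against the spread between libraries of a flesh type. Both kinds of fit estimate a gene's variation with information shared over all tested genes. In such bulk RNA, fewer cells of a type and less RNA per cell cannot be told apart.

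HY5 is a bZIP transcription factor that, in Arabidopsis, accumulates in the light and activates light-responsive and flavonoid genes. The genes after it belong to no single pathway. The descriptions held for them name a wall-building enzyme, a membrane protein, a kinase, enzymes of purine and hormone metabolism, and a mobile-element polyprotein. Retroelements of the long terminal repeat class copy themselves through RNA. Their GAG region encodes the proteins of the particle and their POL region the reverse transcriptase and integrase. Plant genomes hold many near-identical copies, most of them silenced, and short reads from 1 copy can match others.

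Depth was even, between 25536185 and 26050906 estimated reads per library. The flesh labels were checked with 4 anthocyanin genes that the study chose on these samples, so the check is not independent. The study links MdGSTU22 (MD17G1272100) to anthocyanin transport and states that its role still needs functional validation. This gene averaged 1160 ± 145 normalised counts in RF and 254 ± 21.9 in WF (CPM, SD, n = 3 each). MdCHS (MD04G1003300), MdPAL1 (MD04G1096200) and MdDFR (MD15G1024100) were likewise higher in RF, by 1.80, 1.59 and 1.11 on the log2 scale. Of 6 chlorophyll a/b binding protein genes, markers of green tissue, 5 were called higher and 1 lower in RF, and their summed level was 926 to 1007 CPM in RF and 585 to 678 CPM in WF. All 3 markers of epidermis and cuticle were called higher, with sums of 46.1 to 72.2 CPM in RF and 29.8 to 37.4 CPM in WF. These marker genes also came from the study's list of called genes, and their part in the results below was not tested. HY5 had 4.13 ± 1.25 CPM in RF and 3.65 ± 0.72 CPM in WF, a difference of 0.17 (SE 0.17) in log2 that was not called (edgeR adjusted p = 0.562).

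Of the 178 members, 81 reached the mean of 10 reads per library set for the test, or 45.5%, beside 54.5% of all IDs. No read was found in any library for 67 members (37.6%, beside 26.1% of all IDs), and the other 30 had some reads but stayed under that mean. The lowest tested member averaged 13.8 reads and the highest untested one 9.65 reads. The deposited tables list the IDs in 2 ascending blocks, and the second, of short IDs with a median length of 117 bases, held 42 members, of which 1 was tested. The other 136 members had a median length of 1198.5 bases, and 80 of them were tested (58.8%, beside 61.9% of all IDs in that block). Transcript levels of the tested members, in TPM, which is scaled by gene length, ran between 0.746 and 293.7 TPM with a median of 9.53 TPM, against 9.79 TPM over all tested genes. Only 4 members were above 100 TPM, and 1 of these 4, cellulose synthase 1, has a description.

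Against this background, 19 of the 81 tested members differed between RF and WF at an adjusted p under 0.05 in the paired edgeR fit, or 23.5%, beside 18.9% of all 28486 tested genes. Of these members 14 were higher in RF (17.3%, with 10.4% of all tested genes) and 5 were lower (6.17%, with 8.47%). Without the 3 retroelement-like genes MD08G1149900 to MD08G1150100, which sit next to each other, 16 of 78 members were called (20.5%), 11 of them higher (14.1%) and 5 lower (6.41%). In all, 7 called genes, including those 3, were higher by more than 0.5 on the log2 scale (8.64% of tested members, 4.01% of all tested genes). No called member was lower by that much (0 in the edgeR fit, beside 3.79% of all tested genes).

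Without the pairing by letter, the edgeR fit called 10 members, 12.3% beside 10.7% of all tested genes. Of these, 9 were higher (6.03% of all tested genes) and 1 was lower (4.7%), and all 10 were among the 19. All RF libraries were above all WF libraries for 17 members (21.0%, beside 14.9%), and all RF libraries were below all WF libraries for 11 (13.6%, beside 14.0%). In 22 members RF was higher within each of the 3 pairs (27.2%, beside 25.8%), and in 20 it was lower within each (24.7%, beside 24.8%). These shares count members of 1 stretch of 1 chromosome and were given no test of their own. In the 286 tested genes of the interval before the run, MD08G1092000 to MD08G1147100, 46 were called (16.1%). Over all chromosome 8 genes outside the run, these 286 included, the count was 242 of 1315 (18.4%).

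**Figure D1:**
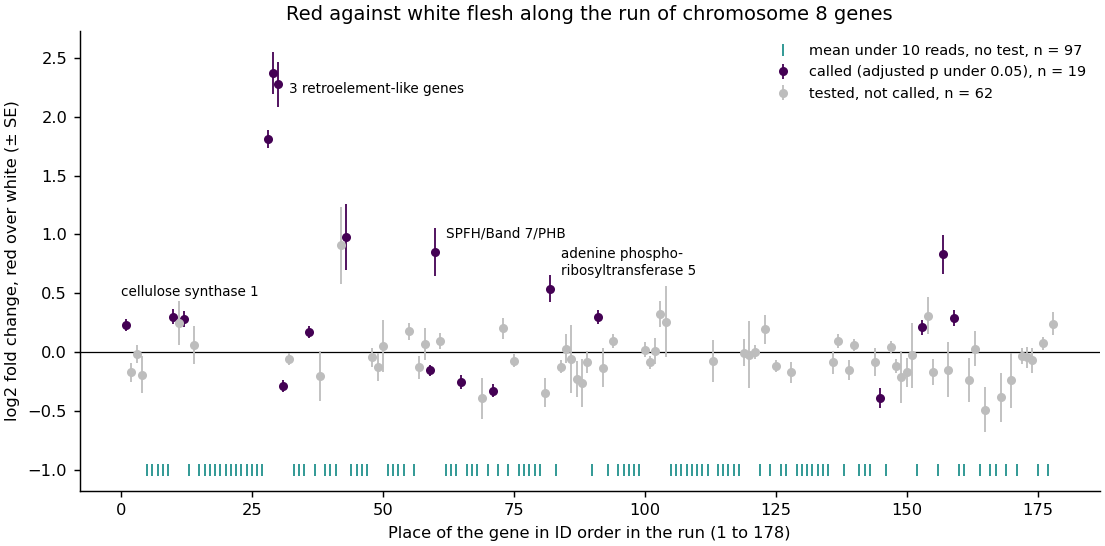
Log2 fold change of RF over WF (paired edgeR fit, bars are SE) for the 81 tested members, by place in ID order from 1 to 178. Dark points are the 19 called members, grey points the 62 tested but not called, and ticks at the bottom the 97 members under a mean of 10 reads. The 3 neighbouring retroelement-like genes at places 28 to 30 stand above all others at 1.81 to 2.37.

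More of the calls lay at the start of the run, as the plot of fold change by place shows. The first 60 IDs held 25 tested members, of which 11 were called in the paired edgeR fit (44%, beside 18.9% of all tested genes). Of these 11, 9 were higher (36% of the 25, beside 10.4%), the 3 retroelement-like genes among them. Without the 3 retroelement-like genes these first IDs had 8 of 22 called (36.4%). The next 59 IDs had 4 of 24 called (16.7%) and the last 59 had 4 of 32 called (12.5%), and this split by place was given no test. Among the 80 pairs of tested members that follow each other, 4 pairs had both members called (5%, beside 4.22% of such pairs over all tested genes). In 2 of these pairs, both within the 3 retroelement-like genes, the members moved the same way, and in the other 2 pairs they moved opposite ways.

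The largest differences of the run lay in these 3 neighbours. MD08G1149900, at place 28, is described as a GAG/POL/ENV polyprotein, the precursor protein of a retroelement, and is 5639 bases long. It had 99.1, 53.2 and 68.3 CPM in RF libraries A, B and C, against 24.7, 18.5 and 18.6 CPM in the WF libraries. Every RF library was above every WF library, RF library A was the highest, and the RF libraries were more spread than the WF ones. Its mean was 73.5 ± 23.4 CPM in RF and 20.6 ± 3.58 CPM in WF (SD, n = 3 each), which is 1.81 on the log2 scale (SE 0.08, adjusted p = 9.96e-09 in edgeR). In the list of all tested genes ordered by p it stood at place 20. RF was 4.01-, 2.88- and 3.68-fold above WF within pairs A, B and C.

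MD08G1150000, the next ID, is described as a member of the DNA/RNA polymerases superfamily, a protein fold that includes reverse transcriptases. Its level was 10.45, 4.95 and 7.15 CPM in the RF libraries and 1.37, 1.28 and 1.62 CPM in the WF libraries A to C. As in its neighbour, RF library A was the highest and RF library B the lowest of RF, with no overlap between flesh types. RF was 5.17-fold higher, or 2.37 in log2 (SE 0.18, adjusted p = 1.11e-06 in edgeR). Within pairs RF was 7.62-, 3.87- and 4.42-fold higher.

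MD08G1150100, at place 30, has no description. Its level was 10.1, 4.41 and 9.39 CPM in RF, against 1.74, 1.59 and 1.50 CPM in WF. Again the flesh types did not overlap and RF library B was the lowest of RF, but here libraries A and C were close. RF was 4.84-fold higher, or 2.27 in log2 (SE 0.19, adjusted p = 2.96e-06 in edgeR).

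**Figure D2:**
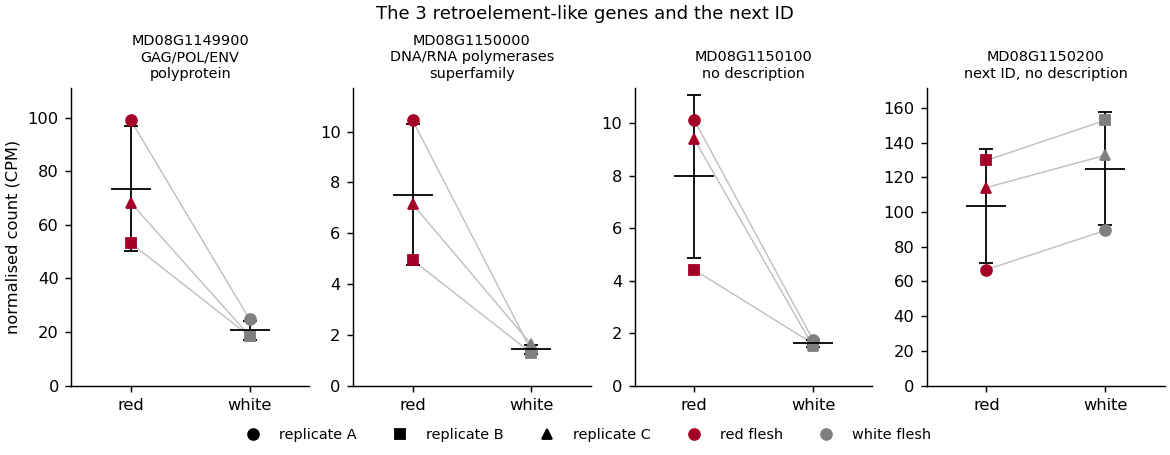
Normalised counts (CPM, linear axes starting at 0) of the 3 retroelement-like genes and of the ID that follows them, MD08G1150200, in the RF libraries (left of each panel) and WF libraries (right). Symbols mark the replicate letter, lines join the 2 flesh types of a letter, and bars are the mean ± SD (n = 3). RF libraries lie above WF libraries in the first 3 panels, while in the fourth each WF library lies above the RF library of its letter.

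Scaled by length, MD08G1149900 remained the most abundant of the 3. It averaged 16.3 ± 4.95 TPM in RF and 4.60 ± 0.81 TPM in WF. MD08G1150000 averaged 9.67 ± 3.45 TPM in RF and 1.83 ± 0.22 TPM in WF, and MD08G1150100 had 3.96 ± 1.50 TPM in RF and 0.804 ± 0.066 TPM in WF. By mean TPM over the 6 libraries they stood at places 37, 51 and 65 among the 81 tested members.

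The 3 genes together drew 4.25%, 2.37% and 3.12% of the run's reads in RF libraries A, B and C, against 1.06%, 0.838% and 0.850% in the WF libraries. The run as a whole took 0.266% to 0.274% of the reads of an RF library and 0.257% to 0.261% of those of a WF library. The ratios of reads among the 3 varied between libraries and were given no test. In WF libraries A to C they rest on few estimated reads. MD08G1150000 had 35.7, 33.0 and 42.0 there, and MD08G1150100 had 45.2, 41.2 and 38.8. MD08G1149900 had 9.48, 10.8 and 9.54 reads for each read of MD08G1150000 in RF, against 18.0, 14.5 and 11.5 in WF, so the ratio was lower in all RF libraries. Against MD08G1150100 the ratio was 9.80, 12.1 and 7.27 in RF and 14.2, 11.6 and 12.4 in WF, and here the flesh types overlapped.

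The origin of these reads has a limit. Estimated counts that are not whole arise where the quantification divides a read among the genes it matches. All 3 genes had such counts, as did 69 of the 81 tested members (85.2%, beside 86% of all tested genes), so this does not set the 3 apart. Only MD08G1149900 has a retroelement description. The name retroelement-like for all 3 was set with the definition of the run, and whether they form a single element was not tested. Whether similar copies elsewhere gave part of their reads was not tested either. The calls held in each of the 19 alternative fits. Over these the largest adjusted p was 0.00251 for MD08G1149900, 0.00315 for MD08G1150000 and 0.00521 for MD08G1150100. The ID before them, MD08G1149800, had 1 to 4 reads in RF and 4 to 7 reads in WF.

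The next ID, MD08G1150200, has no description and went the other way. It had 66.8, 129.8 and 114.1 CPM in RF, against 89.4, 152.9 and 132.7 CPM in WF. Letter A was the lowest in both flesh types and the groups overlapped, but within every letter WF was higher, by 1.34-, 1.18- and 1.16-fold. In the paired fit its change was -0.29 in log2 (SE 0.05, adjusted p = 0.00188 in edgeR). Without the pairing the adjusted p was 0.513, so this call rests on the pairs.

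Descriptions were held for 9 members and not for the other 169, and they came from the genes the study itself listed for their expression or methylation. That 7 of the 9 were called therefore says nothing about the run. Among the described members outside the 3 neighbours, 3 were higher in RF. Cellulose synthase 1 (MD08G1147200), which directly follows HY5, encodes a catalytic subunit of the complex that makes cellulose in growing walls. It was the third most abundant member, at 200 ± 15.2 TPM in RF and 170 ± 13.4 TPM in WF. Its normalised counts were 626.9, 521.9 and 571.0 CPM in the RF libraries, against 527.6, 473.6 and 459.5 CPM in the WF libraries. RF library B lay just below WF library A, so the groups overlapped, while within pairs A, B and C RF was higher by 0.25, 0.14 and 0.31 in log2. Over the pairs this amounts to 0.23 in log2 (SE 0.05, adjusted p = 0.00558 in edgeR). Without the pairing the adjusted p was 0.102. Cellulose synthases form a family of similar genes, so reads may be shared among them.

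Adenine phosphoribosyltransferase 5 (MD08G1155300) belongs to the enzymes that salvage adenine and, in plants, also convert cytokinin bases. It had 19.0, 15.7 and 13.0 CPM in RF and 9.85, 11.6 and 11.2 CPM in WF. The flesh types did not overlap, yet the gap was widest in pair A, at 1.93-fold, and narrowest in pair C, at 1.16-fold. The difference was 0.54 in log2 (SE 0.11, adjusted p = 0.00493 in edgeR), and without pair A the adjusted p was 0.0545.

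MD08G1153100 encodes a protein with an SPFH/Band 7/PHB domain, a domain of membrane-associated scaffold proteins such as prohibitins. It was scarce, with 71, 93 and 81 reads in RF and 41, 34 and 64 reads in WF. RF libraries were all above WF libraries, and WF library C came closest to them. The mean was 3.20 ± 0.39 CPM in RF and 1.79 ± 0.60 CPM in WF (SD, n = 3 each), a gap of 0.85 in log2 (SE 0.21, adjusted p = 0.0112 in edgeR). Without pair B the adjusted p was 0.113, and in the paired DESeq2 fit it was 0.0768. Of 2 genes elsewhere with the same description, MD13G1078800 was higher in RF, at 237 ± 5.90 CPM against 174 ± 25.7 CPM in WF (log2 fold change 0.46), and MD16G1061600 was lower, at 53.9 ± 3.97 CPM against 63.8 ± 1.85 CPM in WF (log2 fold change -0.24).

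Lower in RF were 2 described members. MD08G1154200, of the protein kinase superfamily, whose members pass signals by phosphorylating other proteins, had 49.7, 54.2 and 61.1 CPM in RF, against 65.3, 63.2 and 78.6 CPM in WF. The groups did not overlap, and letter C was the highest in both. Its log2 fold change was -0.33 (SE 0.05, adjusted p = 0.000802 in edgeR), and without the pairing the adjusted p was 0.0513. Of 38 other genes with that broad description, 32 were called higher and 4 lower in RF, but their descriptions came from the study's list of called genes and are no independent background.

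IAA-leucine resistant-like gene 6 (MD08G1161700) belongs to a family of amidohydrolases that free plant hormones from amino acid conjugates, and its Arabidopsis namesake acts on conjugated jasmonate. It had 10.3, 9.54 and 11.5 CPM in RF, against 14.5, 12.7 and 13.8 CPM in WF. Every RF library was below every WF library. In log2 the change was -0.39 (SE 0.08, adjusted p = 0.00536 in edgeR), and it was the only lower member still called by edgeR without the pairing, at an adjusted p of 0.0281. Without pair A the adjusted p was 0.0504, and in the paired DESeq2 fit it was 0.0775.

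**Figure D3:**
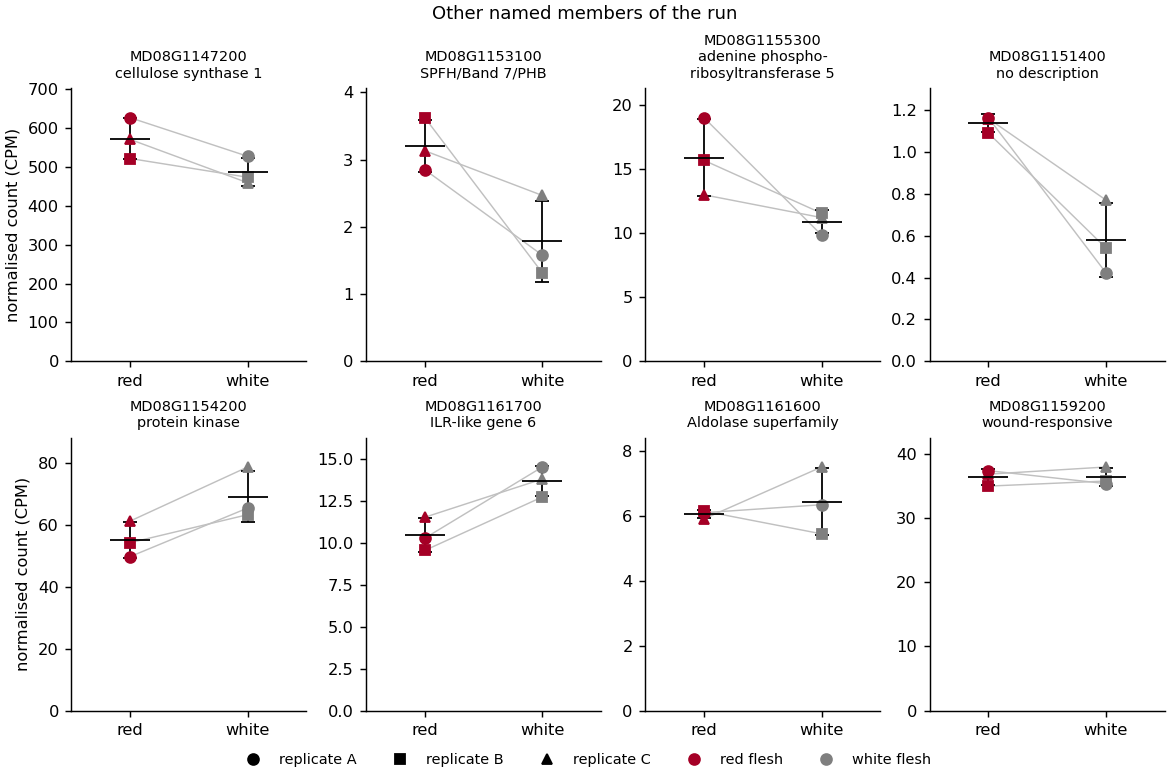
Normalised counts (CPM, linear axes starting at 0) of 8 further named members in RF libraries (left) and WF libraries (right), with replicate letters joined and the mean ± SD (n = 3). The upper row holds 4 members called higher in RF. In the lower row the kinase and the ILR-like gene were called lower, while the aldolase superfamily gene and the wound-responsive gene were not called.

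Both remaining described members were not called. MD08G1161600 is described as an aldolase superfamily protein, and its Arabidopsis match, AT1G69740, is an aminolevulinate dehydratase of chlorophyll and haem synthesis. It had 6.10, 6.15 and 5.91 CPM in RF, against 6.35, 5.45 and 7.51 CPM in WF. The WF libraries spanned the RF ones, and the change in log2 was -0.08 (SE 0.12, adjusted p = 0.698 in edgeR). The 5 other genes with that description were all called higher in RF, again from the study's own list. MD08G1159200, of the wound-responsive family, had 37.3, 34.9 and 36.8 CPM in RF, against 35.3, 35.7 and 37.9 CPM in WF, which overlap throughout (36.4 ± 1.26 CPM in RF and 36.3 ± 1.39 CPM in WF).

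Among called members with no description, MD08G1151400 and MD08G1153600 complete the named genes. MD08G1151400 had 29, 28 and 30 reads in RF, against 11, 14 and 20 reads in WF. The RF counts were nearly alike and all above the WF ones, by 0.98 in log2 (SE 0.28, adjusted p = 0.0277 in edgeR). At this depth the call was fragile, and the adjusted p was 0.179 without pair A and 0.312 in the paired DESeq2 fit. MD08G1153600 had 25.4, 27.3 and 28.6 CPM in RF, against 27.7, 34.8 and 34.9 CPM in WF, so RF library C lay above WF library A. Its log2 fold change was -0.25 (SE 0.06, adjusted p = 0.0120 with and 0.111 without the pairing, both by edgeR). In the paired DESeq2 fit the adjusted p was 0.117.

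The other 8 called members have no description. Of these, 7 were higher in RF, by 0.17 to 0.83 on the log2 scale, and 1 was lower, by -0.15. That last one was the most abundant member of the run, at a mean of 293.7 TPM over the 6 libraries.

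The 62 members tested but not called had log2 fold changes between -0.49 and 0.91, 23 of them positive and 39 negative. Of these, 9 had an unadjusted p under 0.05 in the edgeR fit. Such values were common outside the run too. The uncalled member MD08G1159600, at an unadjusted edgeR p of 0.0439, stood at place 8449 of the 28486 tested genes ordered by p. Of those tested genes 5375 were called. The split by sign was not set beside that of all uncalled genes. Over all 81 tested members the median log2 fold change was -0.03, beside -0.004 over all tested genes, and the median size of the change was 0.17, beside 0.14. The 30 members with few reads reached at most 15.0 reads in any library. In the edgeR fit without a filter on low counts none of these 30 was called (0 calls, 0 with an unadjusted p under 0.05, lowest adjusted p = 0.378). No difference was detected in them at this depth, and how large a change could have been detected was not worked out.

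**Figure D4:**
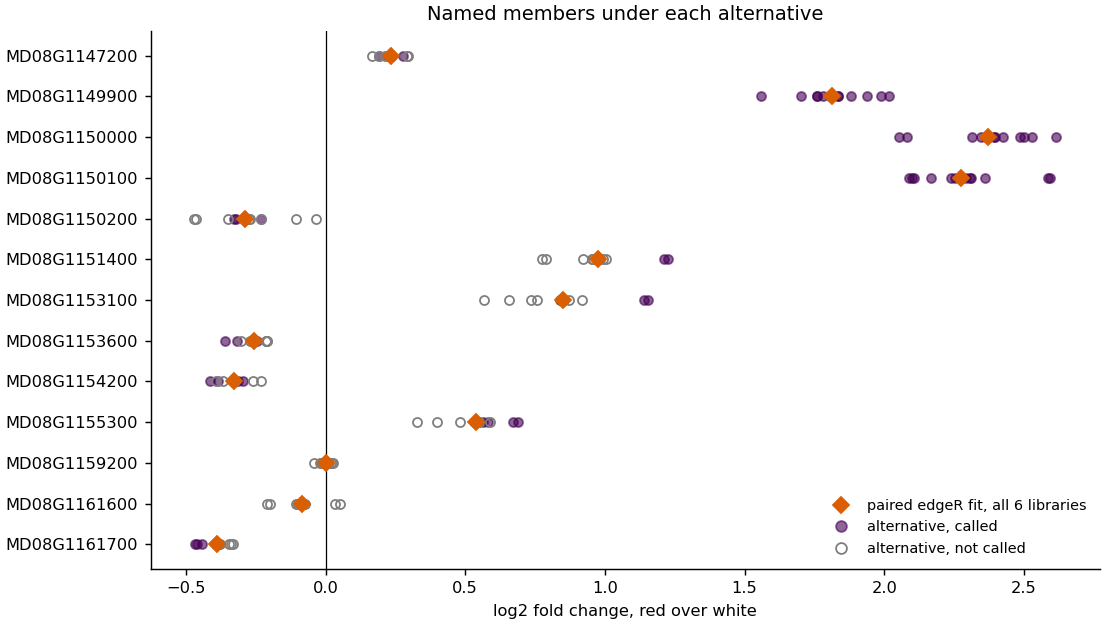
Log2 fold change of RF over WF for the 13 named members in the paired edgeR fit of all 6 libraries (diamonds) and in the alternative fits (filled circles where called, open circles where not). The 3 retroelement-like genes are called throughout, the wound-responsive MD08G1159200 and MD08G1161600 are called nowhere, and the other 8 are called in some.

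Beyond the 3 neighbours, no named call held in every alternative, as the plot of alternative fits shows. With the pairing kept, cellulose synthase 1, MD08G1150200 and the kinase MD08G1154200 were called whichever pair was left out (edgeR adjusted p up to 0.0423, 0.0240 and 0.00751). MD08G1153100, MD08G1155300 and MD08G1161700 were each lost without the pair named beside them, MD08G1151400 without pair A or B (0.179 and 0.0952) and MD08G1153600 without pair B (0.116). A fit without 1 library cannot keep the pairing of its partner, so these fits carried no pairing and changed 2 things at once. They called 3 to 9 members (3.66% to 11.1%, beside 5.51% to 10.9% of all tested genes). The unpaired fit of all 6 libraries called 10 members (12.3%, beside 10.7%). Without RF library A the 3 neighbours alone were called (3.66%, beside 5.51%). The share of members was also below that of all genes without RF library B (4.94%, beside 8.43%) or WF library B (4.88%, beside 5.68%). Without any of the others it was above.

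Outside the 3 neighbours, 4 named members were called without the pairing on all 6 libraries, and none of these 4 kept its call without RF library A or RF library B. The SPFH/Band 7/PHB gene MD08G1153100 had an adjusted p of 0.0699 to 0.147 without each library except WF library C, and MD08G1151400 one of 0.0967 to 0.152. The phosphoribosyltransferase MD08G1155300 had 0.0553 to 0.0876 without library A or B of either flesh type. The ILR-like gene MD08G1161700 had 0.0830 to 0.0986 without RF library A, RF library B or WF library A. Their log2 fold changes kept their sign in all alternatives and lay between 0.57 and 1.15 for MD08G1153100, 0.78 and 1.23 for MD08G1151400, 0.33 and 0.69 for MD08G1155300, and -0.47 and -0.33 for MD08G1161700.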

How the data were processed

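The authors deposited 1 salmon-format table per library, with an estimated count of reads and a TPM value for each gene. The study's methods name the AnaDiff pipeline and the GDDH13 v1.1 genome, and the version of salmon is not given in the sources used here. Libraries were poly(A)-selected, strand-marked and sequenced as pairs. Estimated counts as deposited were rounded to whole numbers. TPM, as deposited by the authors, was only described.

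The quasi-likelihood test of edgeR 4.0.16 (R 4.3.3) compared RF with WF, with TMM normalisation and the replicate letter as a block, over the 28486 genes with a mean of at least 10 reads. P-values were two-sided and Benjamini-Hochberg adjusted over these genes, with calls at 0.05. CPM used TMM-scaled library sizes, and SE came from the fold change and the F statistic. Per the labels, red and white mesocarp were separated within the same fruits. That a letter marks these fruits is not stated, and deviations of same-letter libraries correlated at 0.27, 0.24 and 0.24. Alternatives used DESeq2 1.42.0, other filters and scalings, and left out pairs or libraries. The fits were also run on simulated counts with known changes. Those counts had a single dispersion for all genes, and no result here rests on them.

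Named were all members with a description in the study's lists (9 members), the 3 retroelement-like neighbours, and the 2 called members without description with the largest change each way. Those lists also hold the authors' fold changes and p-values, which were not used. Members and lists were chosen with earlier results of these data known. No ID matched the RefSeq gene table (0 of 52311), so sequences and coordinates were not used here.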

Additional observations from a re-analysis of the deposited data

How the results depend on the processing

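The paired fit called 14 members higher and 5 lower, and 2961 and 2414 of all tested genes. Without the replicate block edgeR called 9 and 1 members, and 1717 and 1340 of all genes. DESeq2 called 6 and 2 members with the block (1514 and 1095 of all genes) and 6 and 2 without it (1588 and 1197). Tested against a change of 0.5 on the log2 scale, edgeR called 3 members higher, the retroelement-like neighbours, and 0 lower (437 and 380 of all genes). With a pair or a library left out, members higher ran from 3 to 15 and lower from 0 to 5, and all genes higher from 922 to 3061 and lower from 649 to 2690. Other settings were size factors of DESeq2, no filter, edgeR's own filter, a mean of at least 50 reads, effective-length offsets and robust dispersion. These gave 18 or 19 called members, from 17.1% of those tested with no filter to 26.9% at the mean of 50. Of all tested genes they called 14.0% with no filter to 21.0% at the mean of 50. MD08G1151400 had no value at the mean of 50. Of the 19 called members, 0 changed sign in an alternative. Some alternatives held fewer libraries and some members had few reads, and the cause of the lost calls was not tested.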
